A study of Mus musculus with 9 samples.

Results

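The proteasome genes of C2C12 muscle fibres were examined as a set of 46 genes, spread over the core, the lid, the base, the activators and inhibitor, and the assembly chaperones. Members were chosen by symbol, as Psm followed by a letter from a to g and a digit, without pseudogenes. Of 24063 symbols, 50 matched this name rule, and 47 of them had a mean of at least 0.5 CPM (counts scaled to the normalised library size) over all 9 libraries. One of the 47, Psmc3ip, matches by name alone, since it encodes a partner in meiotic recombination. It was left out of every count below, which leaves 46 genes out of 14006 tested.

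The libraries came from C2C12, an established mouse myoblast line that fuses into multinucleated fibres when serum is low, here WT cells in DMEM with 2% FBS labelled Day 3. The 1C-MIM group (3 libraries) received One-Carbon Metabolite Induced Medium, in which 6 metabolites tied to the one-carbon network were added to fibres that had already differentiated. The scramble group (3 libraries) received 6 metabolites with no tie to that network, and the control group (3 libraries) stayed in normal medium. Which metabolites were added, and at what dose, the labels do not state. Nor do they tie the 3 libraries of a group to separate cultures. The p-values below therefore set the group differences against the spread among these libraries, and that spread may be technical. All groups are 1 cell line, and the labels give no sorting step. Fewer fibres and less RNA per fibre cannot be told apart in bulk RNA.

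The proteasome is the barrel-shaped protease that degrades proteins tagged with ubiquitin. Its core is built of alpha rings, which gate the entrance, and beta rings, in which 3 catalytic subunits cut peptide bonds. A regulatory particle caps the core, with a lid that removes ubiquitin and a base whose ATPases unfold the substrate and thread it inwards. In skeletal muscle this system degrades contractile proteins during atrophy, and interferon exchanges the catalytic subunits for immunoproteasome forms.

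Count totals, with 1 transcript per gene, were 29.0 to 30.3 M in 1C-MIM, 29.1 to 31.8 M in scramble and 31.2 to 33.2 M in control libraries. The 11 muscle fibre markers found in the files, which include Myog, Acta1 and Ttn, summed to 7982 to 9798 CPM in 1C-MIM, 6047 to 8556 CPM in scramble and 5241 to 9893 CPM in control libraries, on the scale of the count total alone. In each group the highest sum was that of the library numbered 1. Of these 11, Myog (log2 fold change 1.22 ± 0.15 in log2 against control, SE), Ckm (log2 fold change 1.04 ± 0.22) and Tnnc2 (log2 fold change 0.31 ± 0.090) were called higher in 1C-MIM and the other 8 were not called. Against control 10 of the 11 had a positive log2 fold change and Myh8 a negative one (-1.16 ± 0.50, not called). The Myh8 values of all 1C-MIM libraries lay below those of control. The part of these markers in the results below was not tested. Immune markers were near the floor, with 7 of 8 in the files at a summed 1.53 to 2.21 CPM in 1C-MIM, 1.20 to 1.97 CPM in scramble and 1.51 to 1.70 CPM in control, and Cd3e and Tyrobp at 0 in all 9 libraries. In each group the library numbered 1 differed from the others in the same way: all 7 core alpha genes were lower in it, beside its higher sum of fibre markers. The median log2 difference of those 7 genes between library 1 and the other 2 libraries was -0.078 in 1C-MIM, -0.182 in scramble and -0.195 in control, against 0.011, -0.002 and -0.003 over all genes. Counts of called members are therefore also given without the 3 libraries numbered 1.

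The first question was what the one-carbon metabolites changed relative to normal medium. Of the 46 proteasome genes, 16 were called in 1C-MIM against control (edgeR quasi-likelihood test, Benjamini-Hochberg adjusted p below 0.05 over all 14006 genes), which is 34.8%, while 47.3% of all genes tested were called. The 12 that rose were Psmb5, Psmb8, Psmb10, Psmc1, Psmc3, Psmc5, Psmd3, Psmd4, Psmd7, Psme2, Psme3 and Psmg3, and the 4 that fell were Psma7, Psmd8, Psme2b and Psmf1. By direction, 22.9% of all genes rose and 24.3% fell. The 1C-MIM and control libraries did not overlap for 20 members (43.5%), against 55.5% of all genes. Most differences were small: 41 of the 46 members (89.1%) changed less than 1.25-fold on the point estimate, against 62.0% of all genes. For 38 members (82.6%) the whole 95% interval of the fold change lay within 1.25-fold, against 31.8% of all genes. That share also depends on precision, and the median SE was 0.061 for the members and 0.084 for all genes. The median log2 fold change of the members was 0.051, against -0.011 over all genes, and the median absolute one was 0.111 against 0.234.

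The second question set the one-carbon metabolites against as many unrelated ones, through the scramble libraries. Here 13 members were called (28.3%), where 46% of all genes were called, and 7 rose and 6 fell, where 22.9% of all genes rose and 23.2% fell. Those that rose were Psmb5, Psmb10, Psmc3, Psmd3, Psmd7, Psme3 and Psmg3, and those that fell were Psma7, Psmd8, Psmd10, Psmd11, Psme2b and Psmf1. The 1C-MIM and scramble libraries did not overlap for 19 members (41.3%), against 59.5% of all genes. The 95% interval lay within 1.25-fold for 37 members (80.4%), against 32.1% of all genes, with a median SE of 0.061 and 0.084. The 2 comparisons share the 1C-MIM libraries. They named 11 members in common, 7 higher and 4 lower, while 5 were called against control alone and 2 against scramble alone. The difference between the comparisons for those 7 genes is the scramble-control difference, which was not called for any of them. Of all 14006 genes tested, 5724 were called in both comparisons, 897 against control alone and 725 against scramble alone.

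**Figure D1:**
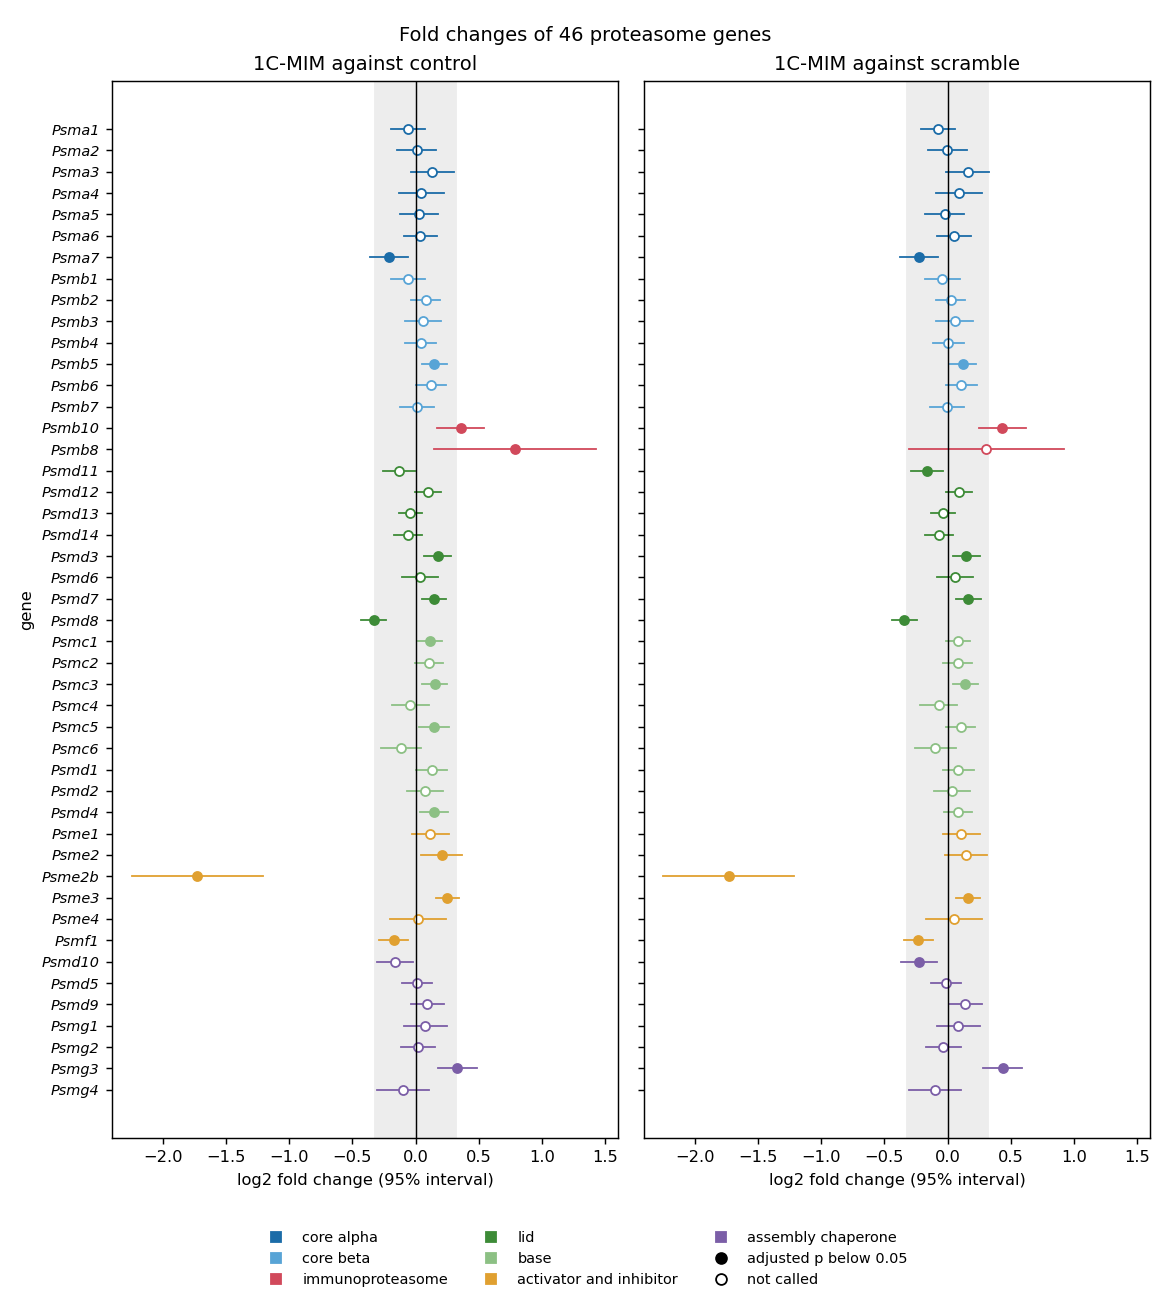
Log2 fold changes with 95% intervals (horizontal axis) of the 46 proteasome genes (vertical axis), in 1C-MIM against control (left) and 1C-MIM against scramble (right), coloured by role, with filled points for an adjusted p below 0.05. The grey band marks 1.25-fold in either direction, and the intervals of 38 genes on the left and 37 on the right lie inside it.

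The third comparison, scramble against control, called none of the 46 members and none of the 14006 genes with edgeR (0% called). At an unadjusted p below 0.05 it called 0 members and 482 genes (3.44%), and DESeq2 and limma-voom called 0 members. The scramble and control libraries did not overlap for 2 members (4.35%, against 9.09% of all genes), Psme3 and Psmg3, both named after their values were seen. The median absolute log2 fold change of the members was 0.028, and the 95% interval lay within 1.25-fold for 44 of 46. The 2 genes with wider intervals were Psmb8 (-0.18 to 1.13 on the log2 scale) and Psme2b (-0.44 to 0.45), the least abundant members.

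The core, lid and base together hold 31 genes, whose mean level ran from 63.6 to 387 CPM. Of these, 9 (29%) were called against control and 7 (22.6%) against scramble. Among the 3422 genes in the same range of CPM, 54% and 53.2% were called. The median absolute log2 fold change of the 31 genes was 0.097 against control and 0.084 against scramble, while that of the genes in this range was 0.176 and 0.171. The median SE was 0.056 for the 31 genes and 0.057 for the range, so the 2 sets were measured with about the same error. Within the core, 2 of 14 genes were called in each comparison (14.3%), and within the regulatory particle 7 of 17 against control (41.2%) and 5 of 17 against scramble (29.4%).

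**Figure D2:**
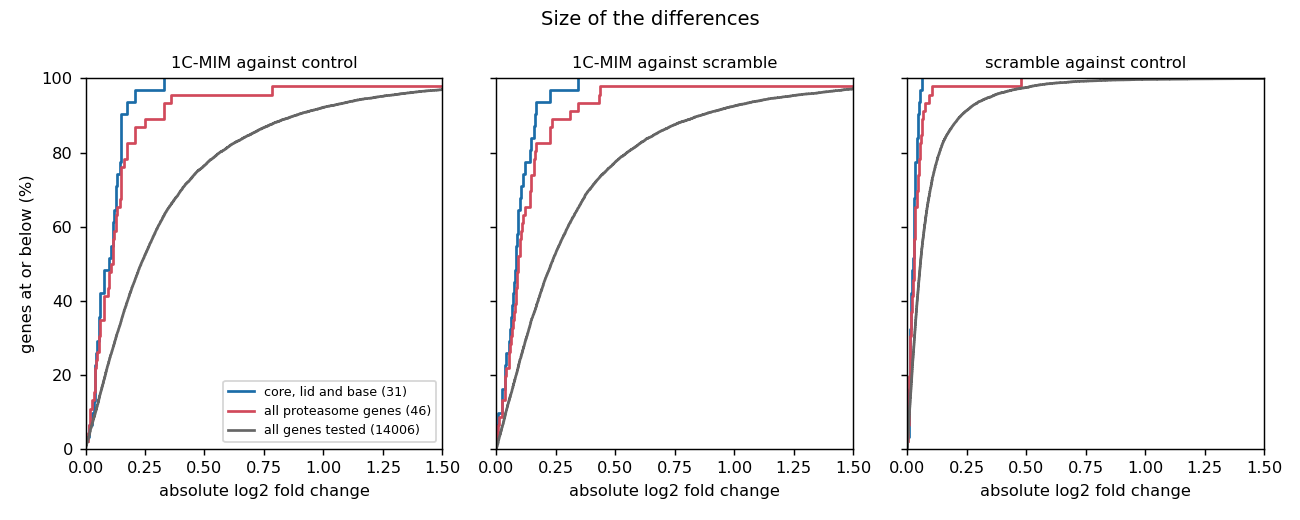
Share of genes (vertical axis, percent) whose absolute log2 fold change is at or below the value on the horizontal axis, for the 31 core, lid and base genes, all 46 proteasome genes and all 14006 genes tested, in 1C-MIM against control, 1C-MIM against scramble and scramble against control. In both 1C-MIM panels the 2 proteasome curves lie above the curve of all genes at small fold changes, with medians of 0.111 and 0.090 for the 46 members against 0.234 and 0.231.

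Promoters were looked up for all 46 members, to show what lies at their starts. A RefSeq promoter (250 bases before to 50 after the start, build GRCm38.p6) was found for 39 of the 46 members and for 27025 genes in all. Psmb1, Psmb2, Psmb7, Psmc3, Psmd3, Psmd7 and Psmg2 had no entry. The ETS core CCGGAAG, on either strand, was in the promoters of 14 of the 39 (35.9%), against 9.9% of all genes. The antioxidant response element core TGACNNNGC, the letters bound by the stress factors Nfe2l1 and Nfe2l2 with small Maf partners, was in 15.4% of the members' promoters and 14.0% of all. CCAAT was in 30.8% against 41.1%, the interferon-stimulated response element core in 12.8% against 4.0%, and the gamma-activated site TTCNNNGAA in 7.7% against 9.6%, all read on both strands. Psmb10, which rose in both comparisons, and Psme2b, which fell in both, hold none of the 5 motifs and are not shown. The promoters of 4 other called genes are shown as examples. Psme3 and Psmg3 rose in both comparisons and hold the ETS core. Psmb5 rose, with calls lost under some settings, and holds the antioxidant core, and Psmd8 fell and holds none of the 5 motifs. They lie at chr11:101315963-101316262, forward strand, for Psme3, chr5:139826845-139827144, reverse strand, for Psmg3, chr14:54617946-54618245, reverse strand, for Psmb5, and chr7:29180624-29180923, reverse strand, for Psmd8. Capitals mark the motif letters, including 1 CCAAT box on the opposite strand in Psme3.
Psme3: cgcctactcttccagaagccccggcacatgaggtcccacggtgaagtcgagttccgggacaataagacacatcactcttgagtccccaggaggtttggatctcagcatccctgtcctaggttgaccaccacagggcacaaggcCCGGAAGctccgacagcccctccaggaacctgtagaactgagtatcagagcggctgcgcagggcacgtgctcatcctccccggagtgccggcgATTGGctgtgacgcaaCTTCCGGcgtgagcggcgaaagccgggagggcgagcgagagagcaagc
Psmg3: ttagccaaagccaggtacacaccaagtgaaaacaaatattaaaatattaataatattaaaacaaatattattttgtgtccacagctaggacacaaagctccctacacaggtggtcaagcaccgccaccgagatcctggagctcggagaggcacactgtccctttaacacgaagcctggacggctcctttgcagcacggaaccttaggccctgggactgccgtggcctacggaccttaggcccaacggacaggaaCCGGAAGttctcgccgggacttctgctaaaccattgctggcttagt
Psmb5: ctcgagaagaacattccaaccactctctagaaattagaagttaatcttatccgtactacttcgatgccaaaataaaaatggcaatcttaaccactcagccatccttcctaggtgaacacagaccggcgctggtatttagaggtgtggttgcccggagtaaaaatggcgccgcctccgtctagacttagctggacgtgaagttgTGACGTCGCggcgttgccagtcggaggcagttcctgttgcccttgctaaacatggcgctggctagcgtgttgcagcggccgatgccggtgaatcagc
Psmd8: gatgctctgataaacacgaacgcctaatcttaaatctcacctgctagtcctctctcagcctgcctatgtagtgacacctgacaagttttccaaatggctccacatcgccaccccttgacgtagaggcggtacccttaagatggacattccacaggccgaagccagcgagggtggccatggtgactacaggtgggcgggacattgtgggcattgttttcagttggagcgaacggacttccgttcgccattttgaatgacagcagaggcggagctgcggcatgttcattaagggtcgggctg
Of the 14 members with the ETS core, 4 rose and none fell against control. Of the 25 without it, 5 rose and 4 fell, where 22.9% of all genes rose and 24.3% fell. Against scramble, 2 rose and 1 fell with the core, and 2 rose and 5 fell without it. There 22.9% of all genes rose and 23.2% fell, and no difference between the 2 sets was tested. The median log2 fold change was 0.077 with the core and 0.040 without it against control, and 0.070 and 0.007 against scramble, a description in which a match is letters and not a bound site.

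In the core alpha ring, 1 of 7 tested genes was called, Psma7, and it fell in both comparisons. That is 14.3% in each, where 47.3% of all genes were called against control and 46% against scramble. Psma7 had 130.3, 139 and 139 CPM in the 1C-MIM libraries, against 149.6, 172 and 156 CPM in scramble and 143, 165 and 163 CPM in control. All 3 1C-MIM libraries lay below the 6 others, and the lowest scramble and control values were those of the libraries numbered 1. Its log2 fold change was -0.21 ± 0.068 (SE) against control (edgeR adjusted p = 0.0257) and -0.23 ± 0.068 against scramble (adjusted p = 0.0179). Psma7 had the highest adjusted p of the 4 genes that fell against control. Its call against control was lost without control replicate 2 or 3 or any 1C-MIM replicate (adjusted p 0.0512 to 0.0884), and against scramble without 1C-MIM replicate 1 or scramble replicate 2 (0.0651 to 0.0849). The other 6 alpha genes, Psma1 to Psma6, had log2 fold changes from -0.06 (Psma1) to 0.13 (Psma3) against control, and none was called. With the replicate number as a block, Psma3 was called against control (adjusted p = 0.0474). The spermatid form Psma8 had 0 counts in all 9 libraries, where a count of 0 allows up to 0.104 CPM in the smallest library.

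In the core beta ring, 1 of 7 genes was called in each comparison (14.3%, where 47.3% and 46% of all genes were called). Its catalytic subunits are Psmb5, with chymotrypsin-like activity, Psmb6, with caspase-like activity, and Psmb7, with trypsin-like activity. Psmb5 had 66.4, 68.4 and 68.0 CPM in the 1C-MIM libraries, against 62.1, 62.4 and 61.9 CPM in scramble and 59.5, 63.6 and 59.8 CPM in control. Every 1C-MIM library was above every other library, and Psmb5 rose on the log2 scale by 0.15 ± 0.045 against control (adjusted p = 0.0182) and 0.12 ± 0.045 against scramble (adjusted p = 0.0458). Psmb6 had 158, 164 and 163 CPM in the 1C-MIM libraries, against 146, 159.6 and 144 CPM in scramble and 143, 157 and 146 CPM in control. The 1C-MIM libraries lay above the control ones but overlapped scramble, and Psmb6 was not called, at a log2 fold change of 0.12 ± 0.054 against control (adjusted p = 0.0932) and 0.11 ± 0.054 against scramble (adjusted p = 0.121). With the replicate number as a block it was called against control (adjusted p = 0.0275). Psmb7 had 188, 202 and 206 CPM in the 1C-MIM libraries, against 187, 204 and 206 CPM in scramble and 184, 209 and 197 CPM in control. The 3 groups overlapped throughout for Psmb7, whose fold change had a 95% interval on the log2 scale of -0.12 to 0.15 against control and -0.14 to 0.13 against scramble. The 3 catalytic genes thus gave 1 called and 2 uncalled members, and no difference between them was tested. The call of Psmb5 was lost without control replicate 3 or 1C-MIM replicate 2 or 3 against control (adjusted p 0.0542 to 0.0630), and against scramble without any 1 of 8 libraries, all but control replicate 1 (0.0540 to 0.118). Library size alone also lost the call against control (adjusted p = 0.0787), and upper quartile scaling, library size alone, both other filters and DESeq2 lost that against scramble (0.0501 to 0.130). In GENCODE M21, 57.1% of the 50-base windows of Psmb5 also occur in other genes, mainly Gm3375, so its counts may be split. The structural beta genes Psmb1 to Psmb4 had log2 fold changes from -0.06 (Psmb1) to 0.08 (Psmb2) against control, with none called.

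The immunoproteasome subunits replace the catalytic beta subunits under interferon, Psmb8 in place of Psmb5, Psmb9 in place of Psmb6 and Psmb10 in place of Psmb7. All 3 were scarce in these fibres. Psmb10 had 10.2, 9.05 and 9.29 CPM in the 1C-MIM libraries, against 6.89, 7.34 and 6.89 CPM in scramble and 7.58, 7.15 and 7.50 CPM in control. The lowest 1C-MIM library was above the highest of the 6 others, and Psmb10 rose on the log2 scale by 0.36 ± 0.085 against control (adjusted p = 0.00509) and 0.43 ± 0.085 against scramble (adjusted p = 0.00183). Psmb8 had 0.845, 1.24 and 0.774 CPM in the 1C-MIM libraries, against 0.939, 0.58 and 0.781 CPM in scramble and 0.441, 0.588 and 0.625 CPM in control. These values rest on 24, 36 and 23 counts in 1C-MIM, 30, 17 and 23 in scramble and 14, 19 and 21 in control. The 1C-MIM libraries lay above control and overlapped scramble, and Psmb8 was called at a log2 fold change of 0.78 ± 0.29 against control (adjusted p = 0.0453) but not at a log2 fold change of 0.31 ± 0.28 against scramble (adjusted p = 0.395). That call was lost with the replicate block (adjusted p = 0.0575). It was also lost with upper quartile scaling, library size alone, no filter, DESeq2, limma-voom, the compared groups alone and without the 3 libraries numbered 1 (0.0511 to 0.10). Leaving out 1 library lost it as well, be it any control replicate, 1C-MIM replicate 1 or 2, or scramble replicate 3 (0.0595 to 0.185). Psmb9 had 6, 11 and 0 counts in 1C-MIM, 6, 7 and 15 in scramble and 5, 1 and 4 in control, a mean of 0.204 CPM. On either side of the minimum of 0.5 CPM, by the count total alone, Psmb9 and Psmb8, at 0.755 CPM, were the nearest members. The thymus form Psmb11 had 5, 0 and 5 counts in 1C-MIM, 0 in each scramble library and 1, 0 and 0 in control. Per transcript length, the immunoproteasome genes tested were far below the genes they replace: in 1C-MIM Psmb10 was at 10.5 ± 0.715 TPM and Psmb7 at 288 ± 11.7 TPM, and Psmb8 at 1.10 ± 0.289 TPM with Psmb5 at 109 ± 1.26 TPM.

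**Figure D3:**
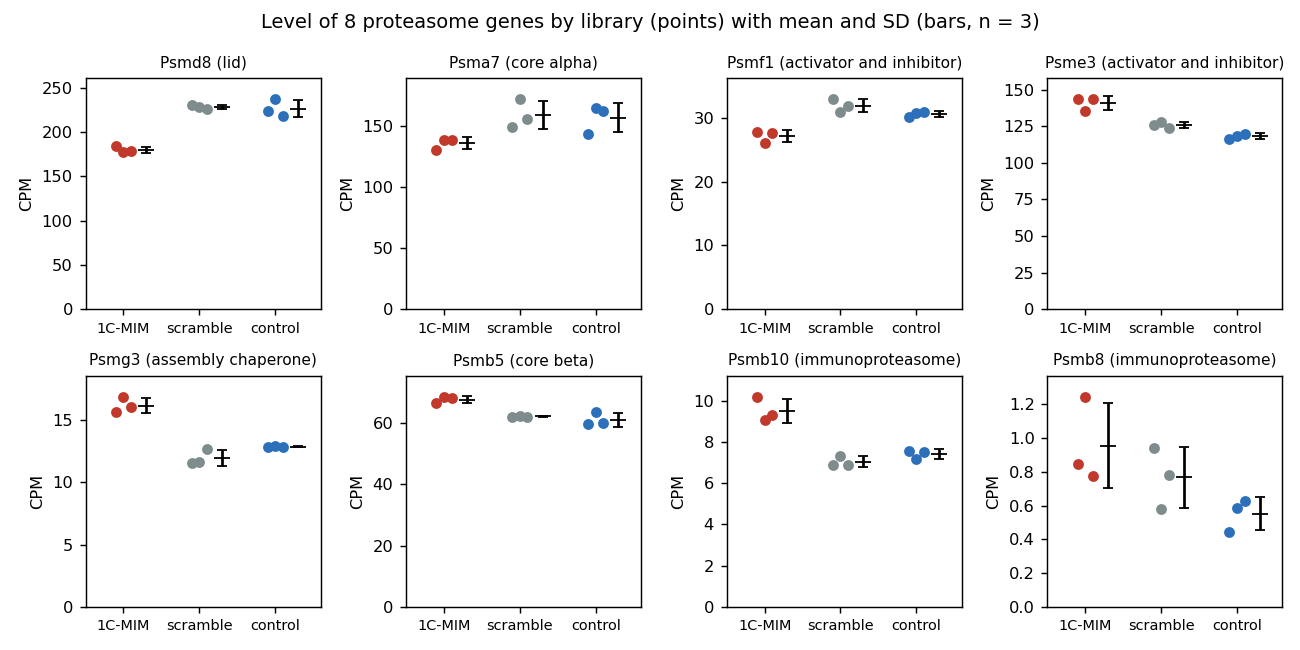
CPM (vertical axes, from 0) of 8 proteasome genes in the 1C-MIM, scramble and control libraries (points, in the order of their numbers), with mean and SD (black bars, n = 3). The 1C-MIM points of Psmd8, Psma7 and Psmf1 lie below all others and those of Psme3, Psmg3, Psmb5 and Psmb10 above all others, while Psmb8 overlaps scramble.

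Of the 8 lid genes, 2 rose and 1 fell against control (37.5% called, against 47.3% of all genes). Against scramble 2 rose and 2 fell (50%, against 46% of all genes), and Psmd8 had the largest fold change. Psmd8 had 184, 178 and 179 CPM in the 1C-MIM libraries, against 230.4, 228 and 226 CPM in scramble and 224, 237 and 218 CPM in control. The 3 1C-MIM libraries lay below the other 6. Psmd8, a lid subunit placed late in lid assembly in yeast, fell by 0.33 ± 0.045 on the log2 scale against control (adjusted p = 0.000159), a change of -20.5%. Against scramble its log2 fold change was -0.34 ± 0.045 (adjusted p = 0.000138), and both calls held at an adjusted p below 0.05 under all 20 alternative settings of transcript, filter, scaling, test, block and libraries. None of its 50-base windows occurs in another gene in GENCODE M21.

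Psmd3 had 186, 173 and 175 CPM in the 1C-MIM libraries, against 165, 159 and 158 CPM in scramble and 165, 154 and 153 CPM in control. Psmd7 had 173, 173 and 166 CPM in the 1C-MIM libraries, against 157, 151 and 149 CPM in scramble and 152, 159 and 151 CPM in control. Both sets of 1C-MIM libraries lay above all others. Psmd3, a structural subunit of the lid, rose on the log2 scale by 0.17 ± 0.048 against control (adjusted p = 0.0113) and 0.15 ± 0.048 against scramble (adjusted p = 0.0269). Psmd7, which pairs with the deubiquitinase Psmd14, rose on the log2 scale by 0.15 ± 0.044 against control (adjusted p = 0.0167) and 0.16 ± 0.044 against scramble (adjusted p = 0.01). Psmd14 itself, which cuts ubiquitin from the substrate, was not called, with a 95% interval on the log2 scale of -0.17 to 0.05 against control. Psmd11 had 95.3, 89.8 and 90.0 CPM in the 1C-MIM libraries, against 106, 100.5 and 101 CPM in scramble and 108, 98.7 and 94.2 CPM in control. Psmd11, a lid subunit that holds lid, base and core together, was called lower against scramble alone (log2 fold change -0.16 ± 0.057, adjusted p = 0.0358), where the groups did not overlap. Against control, where they did, it was not called (log2 fold change -0.13 ± 0.057, adjusted p = 0.0828), and the replicate block called it (adjusted p = 0.0217). The call of Psmd3 was lost against control without control replicate 2 (adjusted p = 0.0558) and against scramble without 1C-MIM replicate 1 or scramble replicate 2 or 3 (0.0860 to 0.0908). With library size alone, Psmd3 was not called in either comparison (adjusted p = 0.0503 against control and 0.0803 against scramble), nor Psmd7 against control (0.0773). The call of Psmd7 was lost against control without control replicate 3 or 1C-MIM replicate 2 (0.0564 to 0.0596), and that of Psmd11 without 1C-MIM replicate 2 or 3 or any scramble replicate (0.0612 to 0.113).

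Of the 9 base genes, 4 rose and none fell against control (44.4% called, against 47.3% of all genes). With upper quartile scaling 1 rose, and none did with library size alone. Against scramble 1 rose (11.1%, against 46% of all genes). Psmc3, the most abundant ATPase of the base per length, was the one called in both. Psmc3 had 359, 356 and 351 CPM in the 1C-MIM libraries, against 321, 326 and 318 CPM in scramble and 321, 329 and 310.2 CPM in control. The groups did not overlap in either comparison, and Psmc3 rose on the log2 scale by 0.15 ± 0.045 against control (adjusted p = 0.0173) and 0.14 ± 0.045 against scramble (adjusted p = 0.0238). Psmd4 had 148, 142 and 144 CPM in the 1C-MIM libraries, against 139.9, 139 and 131 CPM in scramble and 138, 130.5 and 124 CPM in control. Psmd4, a receptor for ubiquitin chains, rose on the log2 scale by 0.15 ± 0.050 against control (adjusted p = 0.0315) and was not called against scramble (log2 fold change 0.08 ± 0.050, adjusted p = 0.196), although the 1C-MIM libraries lay above both other groups. Psmc5 had 161, 156 and 158 CPM in the 1C-MIM libraries, against 158, 144 and 139.8 CPM in scramble and 146, 146 and 137 CPM in control. The ATPase gene Psmc5 rose against control (log2 fold change 0.15 ± 0.053, adjusted p = 0.0435), and scramble replicate 1 lay inside the 1C-MIM range. The fourth, the ATPase gene Psmc1, was called at a log2 fold change of 0.11 ± 0.042 against control (adjusted p = 0.0436). The remaining ATPase genes Psmc2, Psmc4 and Psmc6 and the large scaffold genes Psmd1 and Psmd2 had log2 fold changes from -0.11 (Psmc6) to 0.13 (Psmd1) against control and were not called.

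With the replicate number as a block, Psmc2, Psmc6 and Psmd1 were also called against control (adjusted p = 0.0442, 0.0353 and 0.0222), with Psmc6 lower and the other 2 higher. The calls in the base were also lost when 1 library was left out. That of Psmc3 was lost against control without control replicate 3 (adjusted p = 0.0660) and against scramble without 1C-MIM replicate 1 or 2 or any scramble replicate (0.0529 to 0.0791). Psmd4 lost its call without control replicate 2 or 3 or any 1C-MIM replicate (0.0568 to 0.122). Psmc5 lost its call without those 5 libraries or scramble replicate 2 (0.0607 to 0.147), and Psmc1 without any 1 of 8 libraries, all but scramble replicate 1 (0.0523 to 0.123). Scaling and filters moved these calls as well. Psmc3 lost both with library size alone (adjusted p = 0.0773 against control and 0.0703 against scramble). Psmd4 lost its call with upper quartile scaling, library size alone or the compared groups alone (0.0513 to 0.130), Psmc5 with those scalings or either other filter (0.0589 to 0.155), and Psmc1 under all 5 of these settings (0.0525 to 0.209). Exons of Psmc3 overlap those of Slc39a13 on the opposite strand in GENCODE M21, and the labels do not say whether strand entered the counting.

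**Figure D4:**
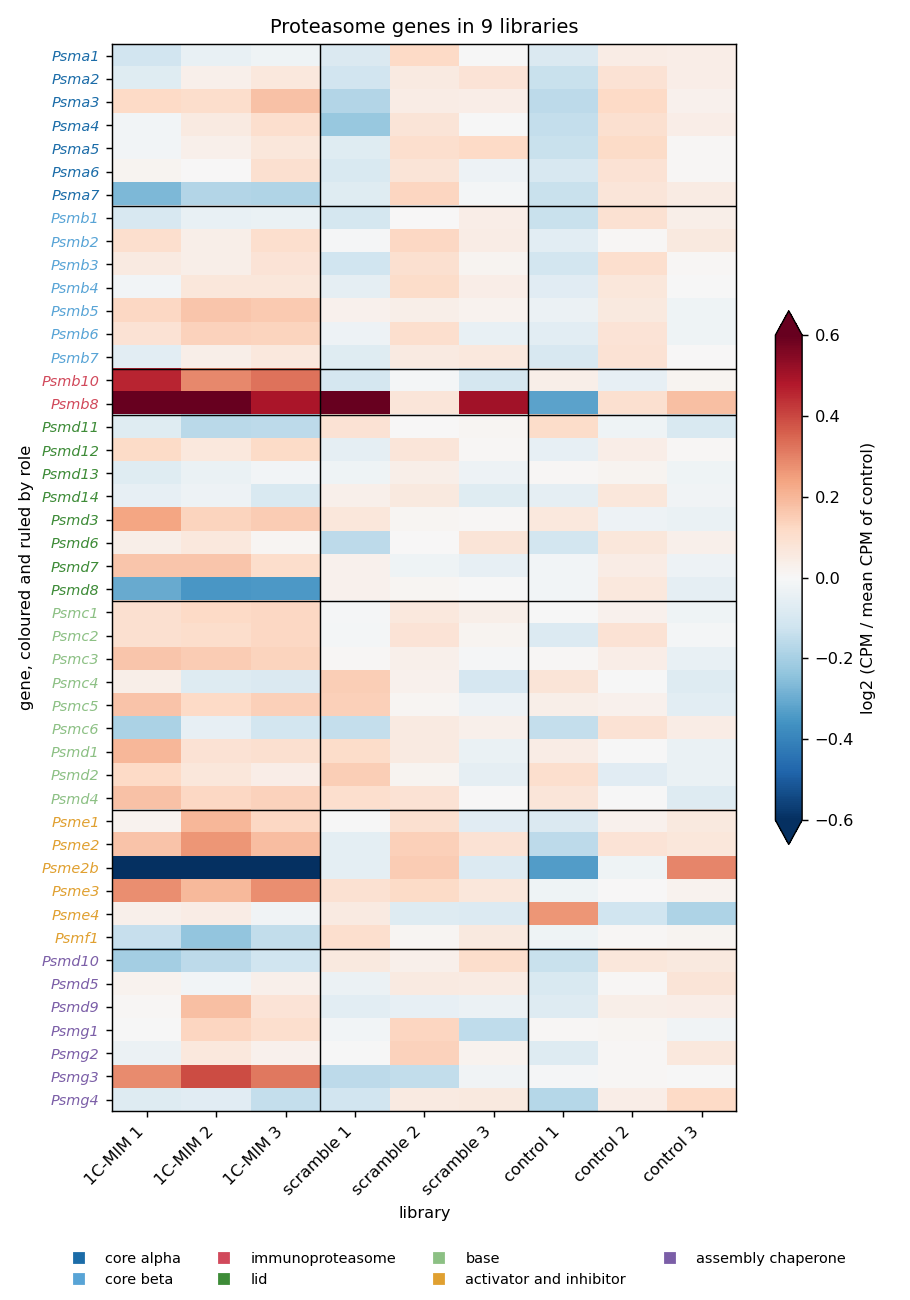
Log2 ratio of CPM to the mean of the 3 control libraries (colour) for the 46 proteasome genes (rows, ordered and coloured by role) in the 1C-MIM, scramble and control libraries (columns). Psmd8, Psma7, Psme2b and Psmf1 are blue and Psmb10, Psme3 and Psmg3 red in all 3 1C-MIM libraries, and the core alpha rows are bluer in libraries 1 of scramble and control than in libraries 2 and 3.

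Of the 6 activator and inhibitor genes, 2 rose and 2 fell against control (66.7% called, against 47.3% of all genes). Against scramble 1 rose and 2 fell (50%, against 46% of all genes). Psme3 encodes the nuclear activator ring that opens the core without ubiquitin. Psme3 had 143, 135 and 143 CPM in the 1C-MIM libraries, against 126, 128 and 124 CPM in scramble and 116, 118 and 119.9 CPM in control. The 3 groups did not overlap at all, with 1C-MIM highest and control lowest, and Psme3 rose on the log2 scale by 0.25 ± 0.042 against control (adjusted p = 0.000646) and 0.16 ± 0.042 against scramble (adjusted p = 0.00993). Both calls held under all 20 alternatives. Scramble was not called against control for this gene (log2 fold change 0.09 ± 0.042, adjusted p = 1).

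Psme1 and Psme2 form the interferon-inducible activator ring. Psme2 had 59.6, 63.5 and 60.1 CPM in the 1C-MIM libraries, against 50.8, 58.5 and 56.2 CPM in scramble and 47.4, 56.0 and 55.5 CPM in control. Psme2 rose against control (log2 fold change 0.21 ± 0.074, adjusted p = 0.0395) and was not called against scramble (log2 fold change 0.15 ± 0.074, adjusted p = 0.128), although the 1C-MIM libraries lay above both other groups. Its partner Psme1 was not called in either comparison (log2 fold change 0.12 ± 0.066 and 0.11 ± 0.066). Psme2 lost its call without control replicate 1, any 1C-MIM replicate or scramble replicate 3 (adjusted p 0.0560 to 0.128), and with upper quartile scaling, library size alone or the compared groups alone (0.0505 to 0.0942). Psme2b had 1.58, 0.863 and 1.01 CPM in the 1C-MIM libraries, against 3.66, 4.23 and 3.60 CPM in scramble and 3.02, 3.75 and 4.67 CPM in control. Psme2b, a copy of Psme2 by its sequence, fell in both comparisons, by 1.73 ± 0.23 on the log2 scale against control (adjusted p = 0.000155) and by 1.73 ± 0.24 against scramble (adjusted p = 0.000166), with no overlap between groups. This was the largest change among the 46 members, and its assignment is uncertain: 68.7% of its 50-base windows also occur in Psme2, 59.3% of those of Psme2 occur in it, and its exons overlap 9930111J21Rik1 on the same strand in GENCODE M21. That neighbour had 22, 27 and 21 counts in 1C-MIM, against 168, 172 and 206 in scramble and 155, 190 and 242 in control.

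Psmf1 had 27.8, 26.0 and 27.6 CPM in the 1C-MIM libraries, against 32.9, 30.9 and 31.9 CPM in scramble and 30.1, 30.8 and 31.0 CPM in control. Psmf1, which encodes an inhibitor of the isolated core, fell by 0.17 ± 0.053 on the log2 scale against control (adjusted p = 0.0188) and by 0.23 ± 0.053 against scramble (adjusted p = 0.00437), and the 1C-MIM libraries lay below all others. Against control this call was lost without control replicate 3 or 1C-MIM replicate 2 (adjusted p 0.0568 to 0.0779). The single-chain activator gene Psme4 was not called (log2 fold change 0.02 ± 0.10 against control). Control replicate 1 held 241 CPM of it and the other control libraries 185 and 177 CPM, and without control replicate 1 Psme4 was called higher in 1C-MIM (adjusted p = 0.0166).

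Of the 7 assembly chaperones, Psmg3, part of the pair that helps the alpha ring to form, was the one that rose, in both comparisons, and 1 fell against scramble. That is 14.3% called against control and 28.6% against scramble, where 47.3% and 46% of all genes were called. Psmg3 had 15.6, 16.9 and 16.0 CPM in the 1C-MIM libraries, against 11.6, 11.6 and 12.7 CPM in scramble and 12.8, 12.9 and 12.8 CPM in control. The lowest 1C-MIM library was above the highest other one, and Psmg3 rose on the log2 scale by 0.33 ± 0.069 against control (adjusted p = 0.0025) and 0.44 ± 0.070 against scramble (adjusted p = 0.00049), under all 20 alternatives. Its partner Psmg4 was not called and had a negative fold change (log2 fold change -0.10 ± 0.093 against control, -0.10 ± 0.093 against scramble). In GENCODE M21, 22.7% of the 50-base windows of Psmg3 also occur in Gm26938, which overlaps it on the same strand. The other core chaperones Psmg1 and Psmg2 had 95% intervals on the log2 scale of -0.09 to 0.25 and -0.12 to 0.15 against control. Of the base chaperones, Psmd10 (gankyrin) was called lower against scramble alone. Psmd10 had 25.7, 26.5 and 27.3 CPM in the 1C-MIM libraries, against 30.9, 30.2 and 31.8 CPM in scramble and 27.0, 31.0 and 30.9 CPM in control. The 1C-MIM libraries lay below all scramble ones and overlapped control replicate 1, with a log2 fold change of -0.23 ± 0.065 against scramble (adjusted p = 0.0149) and -0.16 ± 0.065 against control (adjusted p = 0.062, or 0.0396 with the replicate block). The call against scramble was lost without 1C-MIM replicate 1 or scramble replicate 3 (adjusted p 0.0509 to 0.0551). The base chaperones Psmd5 and Psmd9 were not called, at a log2 fold change of 0.01 ± 0.053 and 0.09 ± 0.059 against control.

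Levels were compared between genes per transcript length, with the deposited TPM. Summed over the 46 genes, the proteasome held 5727 ± 20.0 TPM in 1C-MIM, 5539 ± 99.8 TPM in scramble and 5493 ± 72.1 TPM in control (SD, n = 3 each). The 1C-MIM libraries ran from 5709 to 5749 TPM and lay above all scramble (5477 to 5654) and control (5422 to 5566) libraries, which overlapped each other. On the log2 scale the ratios of the group means were 0.060 against control and 0.048 against scramble, or 0.040 and 0.026 from CPM per kilobase. In CPM per kilobase the sums were 4072 ± 33.6 in 1C-MIM, 3998 ± 120 in scramble and 3960 ± 148 in control. On that scale the 1C-MIM libraries overlapped both other groups, so the separation holds for TPM alone. The sum over a chosen set was given no test.

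By role, base genes summed to 1603 ± 22.0 TPM in 1C-MIM, 1517 ± 49.1 TPM in scramble and 1492 ± 58.6 TPM in control, without overlap between 1C-MIM and the others. The activators and inhibitor summed to 285.7 ± 3.12 TPM in 1C-MIM, 264.3 ± 6.01 TPM in scramble and 257.2 ± 4.05 TPM in control, again without overlap. Both sums were higher in 1C-MIM than in any other library. Lid genes, in which Psmd8 fell while Psmd3 and Psmd7 rose, summed to 946.1 ± 17.1 TPM in 1C-MIM, 952.1 ± 13.8 TPM in scramble and 951.2 ± 27.1 TPM in control. Core alpha genes summed to 1118 ± 31.6 TPM in 1C-MIM, 1093 ± 62.2 TPM in scramble and 1094 ± 50.4 TPM in control, and core beta genes to 1554 ± 25.1, 1501 ± 50.4 and 1488 ± 41.4 TPM. The groups overlapped for the lid and both core rings. The mean TPM per lid or base gene over that per core gene was 0.817 in 1C-MIM replicate 1, 0.842 in scramble replicate 1 and 0.837 in control replicate 1, and 0.750 to 0.782 in the 6 libraries numbered 2 or 3. The libraries numbered 1 thus had the 3 highest ratios, in every medium.

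**Figure D5:**
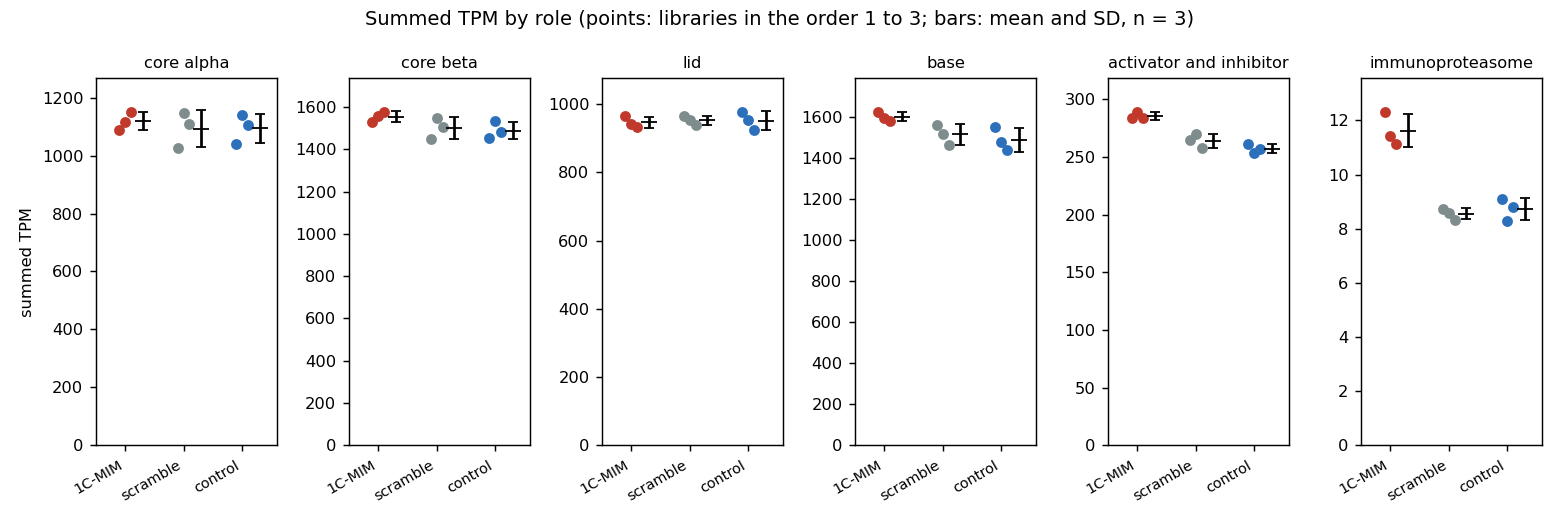
Summed TPM (vertical axes, from 0) of the core alpha, core beta, lid, base, activator and inhibitor, and immunoproteasome genes in the 1C-MIM, scramble and control libraries (points, in the order of their numbers), with mean and SD (black bars, n = 3). For base genes the 1C-MIM mean is 1603 TPM, with 1517 in scramble and 1492 in control, while lid genes average 946.1, 952.1 and 951.2 TPM.

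Within the core the deposited TPM differed between genes that stand in equal number in the particle. In 1C-MIM they ran from 83.8 ± 2.25 TPM for Psma1 to 288 ± 11.7 TPM for Psmb7, and in control from 86.2 ± 1.78 TPM for Psma1 to 287 ± 13.9 TPM for Psmb1. The value of Psma7 depends on its transcript: the chosen one, of 1591 bases, held 120.3 TPM in 1C-MIM, 138.6 TPM in scramble and 136.9 TPM in control. The other one, of 952 bases, held 199.2, 230.8 and 227.5 TPM in the same order, from near-equal counts. The fold changes of the 46 members showed little relation to transcript length across genes, which are not independent replicates (Pearson's r 0.028 against control and 0.024 against scramble, as a description).

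Proteins that bind or build the proteasome without a Psm name were followed as a list of 18, of which 14 were tested. Against control 5 rose and 3 fell (57.1% called, against 47.3% of all genes), and against scramble 5 rose and 3 fell (57.1%, against 46%). Ubr4, a giant ubiquitin ligase, rose on the log2 scale by 0.44 ± 0.062 against control (adjusted p = 0.000202), with 405 ± 4.43 CPM in 1C-MIM, 313 ± 16.1 CPM in scramble and 299 ± 22.1 CPM in control (SD, n = 3). Fam192a, a protein that binds the Psme3 ring, had 77.4 ± 3.27 CPM in 1C-MIM, 59.8 ± 1.76 CPM in scramble and 59.5 ± 1.61 CPM in control and rose on the log2 scale by 0.38 ± 0.050 (adjusted p = 0.000123). Fam192a and Psme3, which bind each other as proteins, were thus both higher. Its exons overlap Rspry1 on the opposite strand, and those of Ubr4 overlap Emc1 on the same strand in GENCODE M21. The ubiquitin ligase Ube3c (log2 fold change 0.23 ± 0.046, adjusted p = 0.00174) and the ubiquitin receptor Adrm1 (log2 fold change 0.22 ± 0.049, adjusted p = 0.00364) also rose. Zfand2b, a zinc finger protein that binds the proteasome, fell (log2 fold change -0.28 ± 0.069, adjusted p = 0.00678). Pomp, the maturation factor of the core, had a log2 fold change of 0.01 ± 0.077, and the small lid subunit Sem1, listed as Shfm1, had 0.13 ± 0.10 (adjusted p = 0.331).

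The listed genes that control proteasome genes, most of them transcription factors, were mostly not called. Of 14 tested, 1 rose and 3 fell against control (28.6%, against 47.3% of all genes), and 2 rose and 3 fell against scramble (35.7%, against 46%). Nfe2l1, which raises proteasome genes when the protease is inhibited, ran from 628 to 637 CPM in 1C-MIM, 571 to 656 CPM in scramble and 518 to 696 CPM in control and was not called (log2 fold change 0.12 ± 0.10, adjusted p = 0.357). Nfe2l2, the oxidative stress factor, was not called either (log2 fold change 0.11 ± 0.054, adjusted p = 0.118). The small Maf partners Maff (log2 fold change -0.98 ± 0.13, adjusted p = 0.00017) and Mafk (log2 fold change -0.26 ± 0.071, adjusted p = 0.0101) fell. The cell cycle factor Foxm1 fell by 0.73 ± 0.11 on the log2 scale (adjusted p = 0.000499) and Stat3 rose on the log2 scale by 0.27 ± 0.051 (adjusted p = 0.00128). Nfe2l1 and Nfe2l2 are known to be controlled mainly as proteins, by processing and turnover, which RNA does not measure.

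Ubiquitin and its shuttle proteins mark substrates and carry them to the proteasome. Of 20 ubiquitin and shuttle genes tested, 9 rose and 1 fell against control (50%, against 47.3% of all genes), and 5 rose and 3 fell against scramble (40%, against 46%). The shuttle gene Ubqln4 (log2 fold change 0.41 ± 0.063), the Vcp cofactor Nploc4 (log2 fold change 0.24 ± 0.054) and the chaperone Bag6 (log2 fold change 0.16 ± 0.040) rose against control (adjusted p = 0.000364, 0.00397 and 0.00699). Uba6, an activating enzyme for ubiquitin, fell against control (log2 fold change -0.38 ± 0.068, adjusted p = 0.000896).

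Beside the immunoproteasome, 23 genes of interferon signalling and antigen presentation were tested, and 3 rose and 3 fell against control (26.1%, against 47.3% of all genes), with 4 and 4 against scramble (34.8%, against 46%). The peptide transporter genes Tap2 (log2 fold change 0.81 ± 0.072, adjusted p = 1e-05) and Tap1 (log2 fold change 0.75 ± 0.17, adjusted p = 0.00396) and the peptide trimming enzyme Erap1 (log2 fold change 0.71 ± 0.085, adjusted p = 6.94e-05) rose. Tap2 averaged 49.4 ± 4.03 CPM in 1C-MIM, 29.2 ± 1.99 CPM in scramble and 28.2 ± 1.08 CPM in control. The interferon gamma receptor chain Ifngr2 (log2 fold change -0.36 ± 0.058, adjusted p = 0.000439) and Nlrc5, the activator of class I genes (log2 fold change -1.11 ± 0.20, adjusted p = 0.000911), fell. In scramble against control edgeR called no gene of these 4 lists, and 1 gene, in the interferon list, passed an unadjusted p below 0.05.

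The number of called members changed with the libraries and the scaling. Psmb10, Psmd8, Psme2b, Psme3 and Psmg3 were called in both comparisons under all 20 alternatives at an adjusted p below 0.05, and Psmd7 and Psmf1 against scramble. At an adjusted p below 0.01 without other changes, those 5 were the members called against control, and those 5 and Psmf1 against scramble. Of the calls against control, 75.0% were higher. This split became 7 higher and 6 lower with upper quartile scaling and 3 higher and 6 lower with library size alone. Against scramble it was 7 and 6, or 4 and 6 with library size alone. The number called against control was 8 without control replicate 3, 10 without 1C-MIM replicate 1, 7 without 1C-MIM replicate 2 and 10 without 1C-MIM replicate 3. Against scramble it was 8 without scramble replicate 2 and 8 without scramble replicate 3. Without the 3 libraries numbered 1 it was 22 against control and 16 against scramble. The share of all genes called under each setting is not given here, so these moves may not be particular to the members. No called member changed sign under any of these settings.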

How the data were processed

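Messenger RNA was measured in 9 libraries of C2C12 fibres (3 each of 1C-MIM, scramble and control), from 1.3 µg of total RNA each with a SMARTer kit, per the labels' protocols. The submitters' processing notes name the build GRCm39, the aligners and quantifiers STAR, Salmon 1.5.2, StringTie 2.2.1 and featureCounts (Subread 2.0.1), the read tools Picard 2.27.4, Trim Galore 0.6.7, bedtools 2.30.0 and SAMtools 1.15.1, and DESeq2 1.28.0, without saying which made which value. Per the file headers, the deposited tables list 33984 transcripts with a count, TPM and FPKM apiece. The authors' count values are whole numbers without any scaling. FPKM, which the authors scaled by length and library total, served to recover transcript lengths. The authors' TPM values, scaled to 1 sum per library, gave levels per length.

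For each symbol the transcript with most counts on average was kept. Genes passing filterByExpr were tested with edgeR 4.0.16 (limma 3.58.1, R 4.3.3): quasi-likelihood, robust, TMM, 1 fit over all 9 libraries, Benjamini-Hochberg over 14006 genes, called at an adjusted p below 0.05. SE is the absolute log2 fold change over the square root of F, and 95% intervals use its t quantile. The step was tested on simulated data. The untested genes held 0.0280% of the counts. Depth was 29.0 to 33.2 M counts per library; intervals for a count of 0 cover counting error only.

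Members and lists were chosen with earlier results of these data known. Every member may be named, with values in each library for the catalytic genes and, per role and comparison, up to 3 called members with the largest change in each direction. Of other lists up to 5 genes with the smallest p against control were named, plus Nfe2l1, Nfe2l2, Sem1, Adrm1 and Pomp, and 1 gene is not reported here. Alternatives were limma-voom, DESeq2 1.42.0, other filters and scalings, the mean over transcripts, a fit of the compared groups alone, a stricter threshold, each library left out, the 3 libraries numbered 1 left out and the replicate number as a block. Deviations of same-numbered libraries from their group means correlated at 0.227, 0.107 and 0.106 between 1C-MIM and control, and at 0.607, 0.323 and 0.261 between scramble and control. Libraries of unlike number reached 0.148 (1C-MIM 3 with control 2) and 0.343 (scramble 2 with control 3). Only the libraries numbered 1 correlated above every unlike pair, and the labels state no pairing. Whether the numbers pair the libraries is therefore not settled. The main fit has no block, and the block is an alternative. Shared 50-base windows and exon overlaps come from GENCODE M21, and promoters from RefSeq on GRCm38.p6, another build than that of the tables.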

Additional observations from a re-analysis of the deposited data

How the results depend on the processing

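Against control, 16 proteasome genes were called. The number was 5 at an adjusted p below 0.01 and 9 with library size alone, and between 13 and 22 with RLE or upper quartile scaling, both filters, DESeq2, limma-voom, the mean over transcripts and the replicate block, with 12 from the compared groups alone. Leaving out 1 library gave 7 to 17. Against scramble, 13 were called, with 6 at an adjusted p below 0.01, 10 with library size alone, 12 to 14 with the other scalings, filters, tests and groups, and 8 to 16 with 1 library left out. The cause of these moves was not tested. These counts stand without the share of all genes called under the same setting. With the replicate number as a block, 22 were called against control (15 higher, 7 lower) and 17 against scramble (11 higher, 6 lower). Against control the block changed the calls given above and no other member's. Between 1C-MIM and scramble the same-numbered libraries correlated at 0.197, 0.076 and 0.024, and those of unlike number reached 0.122. There the block added Psma3, Psmb6, Psme2 and Psmd9. Scramble against control gave 0 called members under every setting. The median log2 fold change of all genes against control was -0.011 in the main fit. It was -0.033 with upper quartile scaling and -0.058 with library size alone. Against scramble these medians were 0, -0.018 and -0.035. Summed TPM against control gave a log2 ratio of 0.051 to 0.070 with 1 library left out, and 0.040 to 0.063 against scramble. Psmb8 and Psmb9 rest on few counts, so depth limits both.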

Other observations

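Psmc3ip, which shares the name pattern without being a proteasome gene, had 8.42, 8.60 and 8.31 CPM in 1C-MIM, 8.99, 11.7 and 9.27 CPM in scramble and 8.37, 9.63 and 9.85 CPM in control. It was not called in any comparison with edgeR, with a log2 fold change of -0.14 ± 0.11 (SE) against control and -0.24 ± 0.11 against scramble. Its exons overlap Mlx on the opposite strand in GENCODE M21.

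Core beta genes were lower in library 1 than in the mean of the others by a median log2 difference of -0.047 in 1C-MIM, -0.126 in scramble and -0.100 in control. Of the 7 core beta genes, 6, 7 and 7 were lower in library 1 in the same order. For the 9 base genes the medians were 0.041, 0.055 and 0.051, with 3, 4 and 3 of the genes lower in library 1. The labels give no date, batch or other mark that sets the libraries numbered 1 apart.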
